A study of Mus musculus with 32 samples.

Results

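Basal liver was compared between mice given palm oil and mice given water, which were sampled without an insulin clamp. The samples were those titled as palm oil basal (9 mice) and as control basal (7 mice), 16 of the 32 arrays in the series, each from a separate mouse. All were wild-type male C57BL/6NTac mice aged 14 weeks that had fasted for 10 h and then received palm oil at 2 g/kg body mass, or water, by gavage. Liver was snap frozen 6 h after the gavage, when the mice were killed under isoflurane. The other 16 arrays came from catheterised mice given the same gavages and then a hyperinsulinemic-euglycemic clamp, and they enter here only in the estimate of the spread and in values set beside the basal ones. The comparison asks which liver transcripts differed after a single oral load of saturated fat, before any insulin was infused.

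Dietary fat reaches the liver as chylomicron remnants and as fatty acids released by lipases, in addition to the fatty acids that adipose tissue releases in fasting. Hepatocytes esterify these fatty acids into droplets and lipoproteins or oxidise them, and the receptor PPARA switches on the genes of oxidation when fatty acids are plentiful. Palmitate, the main saturated fatty acid of palm oil, is also known to load the endoplasmic reticulum membrane, where the sensors of the unfolded protein response answer by raising chaperones.

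Values are log2 expression values per gene, with 22180 genes measured, so that a difference of 1 is a 2-fold difference in array signal. Of 13 hepatocyte markers, 12 had a mean of at least 5 in the basal arrays, with a median level of 10.7 over the 13, and Ass1 alone lay lower, at 3.41. The largest difference among them between the groups was -0.19, for Hnf4a, and none had an unadjusted p under 0.05, although 2 were lower at that p with the sets of arrays split at animal 44, described next, as a block, and 1 was lower after repeated quantile normalization. Markers of B cells, T and NK cells, islet cells and erythroid cells all lay under 3. In whole liver, fewer cells of a type and less RNA per cell cannot be told apart.

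The basal arrays fell into sets that the treatment did not define. Arrays of animals numbered 44 or higher (3 palm oil and 4 water mice) had narrower interquartile ranges, from 2.44 to 2.54, than the other 9, from 2.72 to 2.96. Transcripts of pancreatic acinar cells, taken as the mean of 19 digestive enzyme and related genes, ranged from 1.67 to 8.67 in palm oil mice (median 7.00) and from 2.20 to 8.20 in water mice (median 6.34). Of these 19 genes 14 lay higher with palm oil, with a median log2 difference of 0.07, and none had an unadjusted p under 0.05. Their level was over 6 in 5 palm oil and 4 water arrays. The arrays left without these were palm oil animals 33, 35, 37 and 39, all below 44, and water animals 40, 44 and 46. Values without the arrays high in acinar transcripts thus also compare across the split at animal 44. In them acinar level and set of arrays cannot be told apart. With the acinar level as a term over all arrays, the 112 named genes kept their sign. The median of 1 of the 31 pathway lists took the other sign in that fit. Differences varied between these sets of arrays. Of the 112 named genes, 84 had a difference that took the other sign or was over 1.5 times larger or smaller within 1 of the sets at animal 44 than over all mice, 77 did so without the arrays high in acinar transcripts, and 53 did so when some single array was left out. Of the 31 pathway lists, the median took the other sign in 8 below animal 44, in 8 from there on and in 10 without the arrays high in acinar transcripts. Such values are printed for most leading genes and some lists, and a value printed without them is not thereby stable.

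No gene differed between palm oil and water mice after adjustment over all genes (0% of 22180; limma, threshold 0.05), and the smallest limma adjusted p was 0.300. At an unadjusted p under 0.05, 581 genes (2.62%) lay higher and 553 (2.49%) lower with palm oil, and an exact rank sum test gave 774 such genes in all and also called 0. Among the 4601 genes with a mean of at least 5, where dim probe sets are left out, 105 (2.28%) lay higher and 52 (1.13%) lower. In that brighter part 57.2% of genes had a difference above 0, with a median of 0.02, against 51.03% and a median of 0.00 over all genes. These shares are the background for every list below. The side on which the whole distribution lay moved with the scaling, since repeated quantile normalization gave 48.9% above 0 over all genes.

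The width of the intervals says how large a difference the 16 mice could have hidden. For the 1468 genes with a mean of 7 or more, the 95% interval lay within 1.5-fold in 94.8% and within 2-fold in 99.0%. For the 3133 genes between 5 and 7 these shares were 92.1% and 98.8%. For genes between 3 and 5 the share within 1.5-fold was 80.0%. Signals under 3 lie near the background of the array, where a change in RNA is compressed, so that narrow intervals there say little about RNA.

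**Figure D1:**
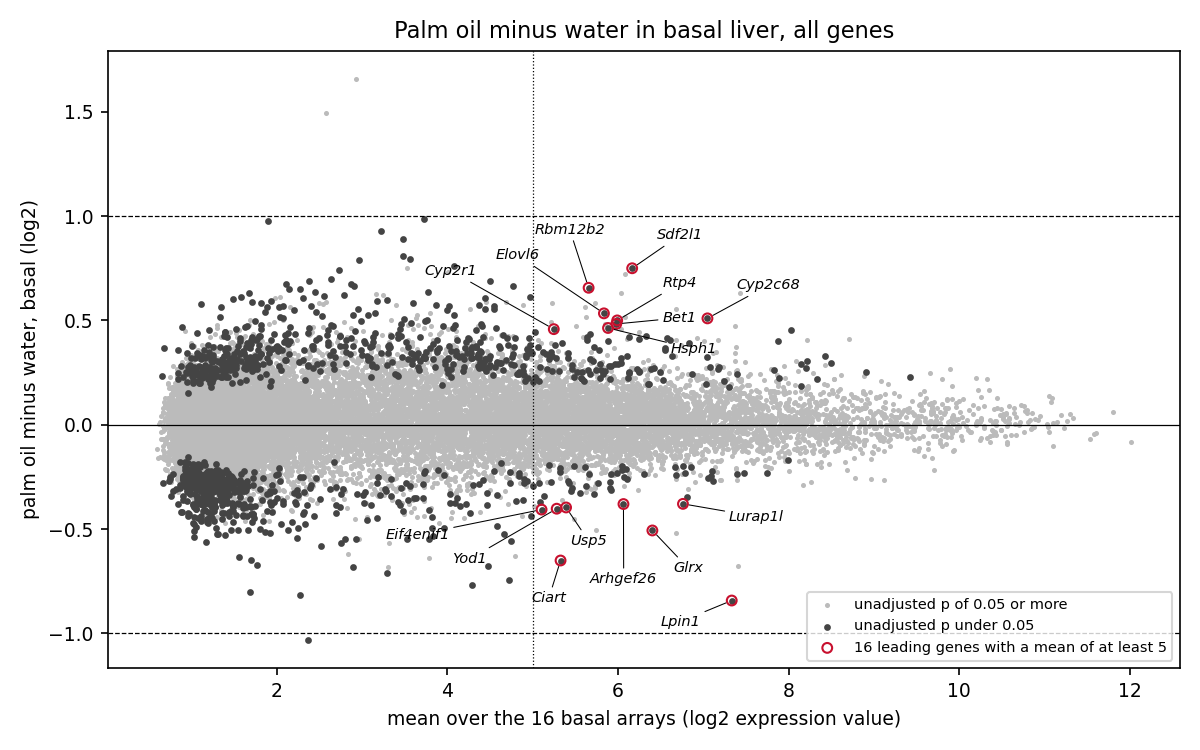
Palm oil minus water difference (log2) of each of 22180 genes against its mean over the 16 basal arrays (log2 expression value). Dark points have an unadjusted p under 0.05. Red rings mark 16 of these with a mean of at least 5, the 8 largest differences in each direction. The dotted line marks that mean and the dashed lines a 2-fold difference. Most genes with a difference over 0.5 on either side lie left of the dotted line, and Lpin1, at -0.84, and Sdf2l1, at 0.75, lead the brighter genes.

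The genes with the largest differences among the brighter ones were of several kinds, and every limma adjusted p among the 19 described in the next paragraphs was 0.960. They were chosen for their size or their small p in these same mice, so their values are a description. Probe sets of close relatives, such as the Cyp2c genes, Rbm12b1 and Rbm12b2 or Acot1 and Acot2, can share signal, which was not tested.

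Stip1, the co-chaperone that hands client proteins from HSP70 to HSP90, had the smallest p of a bright gene. Its level ran from 6.77 to 7.30 in palm oil mice (median 7.01) and from 6.45 to 6.84 in water mice (median 6.64). The groups overlapped through 1 palm oil mouse only: the other 8 lay above all water mice. The log2 difference was 0.39 ± 0.11 (SE, n = 9 and 7), or 1.31-fold with a 95% interval from 1.13 to 1.53. It was 0.46 within the animals below 44 and 0.27 within those from 44 on.

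Sdf2l1, an endoplasmic reticulum protein that works with the chaperone BiP, had the largest positive difference of a bright gene. Its level ran from 5.48 to 7.21 in palm oil mice (median 6.69) and from 5.05 to 6.29 in water mice (median 5.77). Of the 9 palm oil mice 7 lay above every water mouse, while the lowest lay among them. The log2 difference was 0.75 ± 0.35, or 1.68-fold with a 95% interval from 1.03 to 2.74, and it kept to a range from 0.63 to 0.88 when each basal array was left out in turn. It was 0.74 below animal 44 and 1.02 from there on. The SE takes in clamped mice, with SDs of 0.62 and 1.27 against 0.51 and 0.38 in basal palm oil and water mice.

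Elovl6, the elongase that extends palmitate, ran from 5.62 to 6.64 in palm oil mice (median 6.10) and from 5.24 to 5.94 in water mice (median 5.49). Of the palm oil mice 6 of 9 lay above every water mouse. The log2 difference was 0.53 ± 0.19, or 1.45-fold with a 95% interval from 1.10 to 1.90, and was 0.51 below animal 44 and 0.71 from there on.

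Rtp4, an interferon-inducible chaperone of cell surface receptors, was the only bright gene with a name other than a clone identifier whose groups did not overlap. Its level ran from 5.87 to 6.61 in palm oil mice (median 6.20) and from 5.50 to 5.79 in water mice (median 5.71), so that all 9 lay above all 7. The log2 difference was 0.50 ± 0.20, or 1.41-fold with a 95% interval from 1.06 to 1.88, and was 0.53 below animal 44 and 0.40 from there on. Its SE takes in clamped mice, with SDs of 0.27 and 0.82 against 0.22 and 0.10 in basal palm oil and water mice. Only 3 of all genes (0.0135%) had groups that did not overlap. The others were Lmo3, a transcriptional cofactor at the background with a mean difference of 0.26, and D230025D16Rik, an uncharacterised gene that ran from 7.18 to 7.547 in palm oil and from 7.552 to 7.77 in water mice.

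The remaining positive differences among the leading genes, apart from Hsph1 below, belonged to genes without a shared role. Cyp2c68, a cytochrome P450, differed by 0.51 ± 0.15, with 3 of 9 palm oil mice above every water mouse, but by 0.27 below animal 44, 0.54 from there on and 0.93 without the arrays high in acinar transcripts. Bet1, a SNARE of vesicles that travel from the endoplasmic reticulum to the Golgi, differed by 0.48 ± 0.16, with 0.47 below animal 44, 0.20 from there on and 0.78 without those arrays. Cyp2r1, a vitamin D 25-hydroxylase, differed by 0.46 ± 0.20, with 0.32, 0.56 and 0.74 in the same order. Slc39a9, a zinc transporter, differed by 0.37 ± 0.12, with 0.19, 0.46 and 0.58. Rbm12b2, an RNA-binding protein, differed by 0.66 ± 0.25, but by 0.05 within the animals below 44 and 0.87 within those from 44 on, and by 0.39 without water replicate 6.

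Lpin1, the phosphatidate phosphatase that makes diacylglycerol and also coactivates PPARA, had the largest negative difference. Its level ran from 5.61 to 8.12 in palm oil mice (median 6.54) and from 6.63 to 8.88 in water mice (median 7.90). Of the palm oil mice 5 of 9 lay below every water mouse and 3 water mice lay above every palm oil mouse, yet the ranges overlapped over more than 1 log2 unit. The log2 difference was -0.84 ± 0.37, with a 95% interval from -1.59 to -0.09, and the SD between mice was 1.01 in palm oil and 0.88 in water mice. In clamped palm oil and water mice, whose spread enters the SE and the interval, the SD was 0.32 and 0.84, so both are narrow for the basal mice. The difference was -0.69 below animal 44 and -1.14 from there on, and -1.53 without the arrays high in acinar transcripts.

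Ciart, a repressor of the circadian clock, ran from 4.41 to 5.67 in palm oil mice (median 4.84) and from 5.12 to 6.25 in water mice (median 5.55). Of the palm oil mice 6 of 9 lay below every water mouse, and the other 3 lay among the water mice. The log2 difference was -0.65 ± 0.23, and it was -0.70 below animal 44 and -0.85 from there on.

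Glrx, the glutaredoxin that removes glutathione from protein thiols, ran from 5.96 to 6.71 in palm oil mice (median 6.10) and from 6.16 to 7.09 in water mice (median 6.68). Again 6 of 9 palm oil mice lay below every water mouse, and the log2 difference was -0.51 ± 0.15, with -0.32 below animal 44, -0.75 from there on and -0.33 without the arrays high in acinar transcripts. Hmox2, the constitutive heme oxygenase, differed by -0.30 ± 0.09, with 7 of 9 palm oil mice below every water mouse. The list of 18 oxidative stress and NRF2 genes had a median difference of 0.03, with 13 above 0 and none at an unadjusted p under 0.05.

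The other negative differences among the leading genes were those of the deubiquitinases Usp5 (-0.40 ± 0.14) and Yod1 (-0.40 ± 0.15), of Eif4enif1, which binds the cap-binding protein eIF4E (-0.41 ± 0.17), of the guanine nucleotide exchange factor Arhgef26 (-0.38 ± 0.11) and of the adaptor Lurap1l (-0.38 ± 0.13). All 5 lay nearer 0 within the animals below 44 than within those from 44 on. The values were -0.24 and -0.67 for Usp5, -0.09 and -0.70 for Yod1, -0.32 and -0.65 for Eif4enif1, -0.20 and -0.60 for Arhgef26, and -0.27 and -0.71 for Lurap1l. Without the arrays high in acinar transcripts Usp5 differed by -0.15, Yod1 by -0.67 and Eif4enif1 by -0.24, and without palm oil replicate 9 alone Eif4enif1 differed by -0.26.

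**Figure D2:**
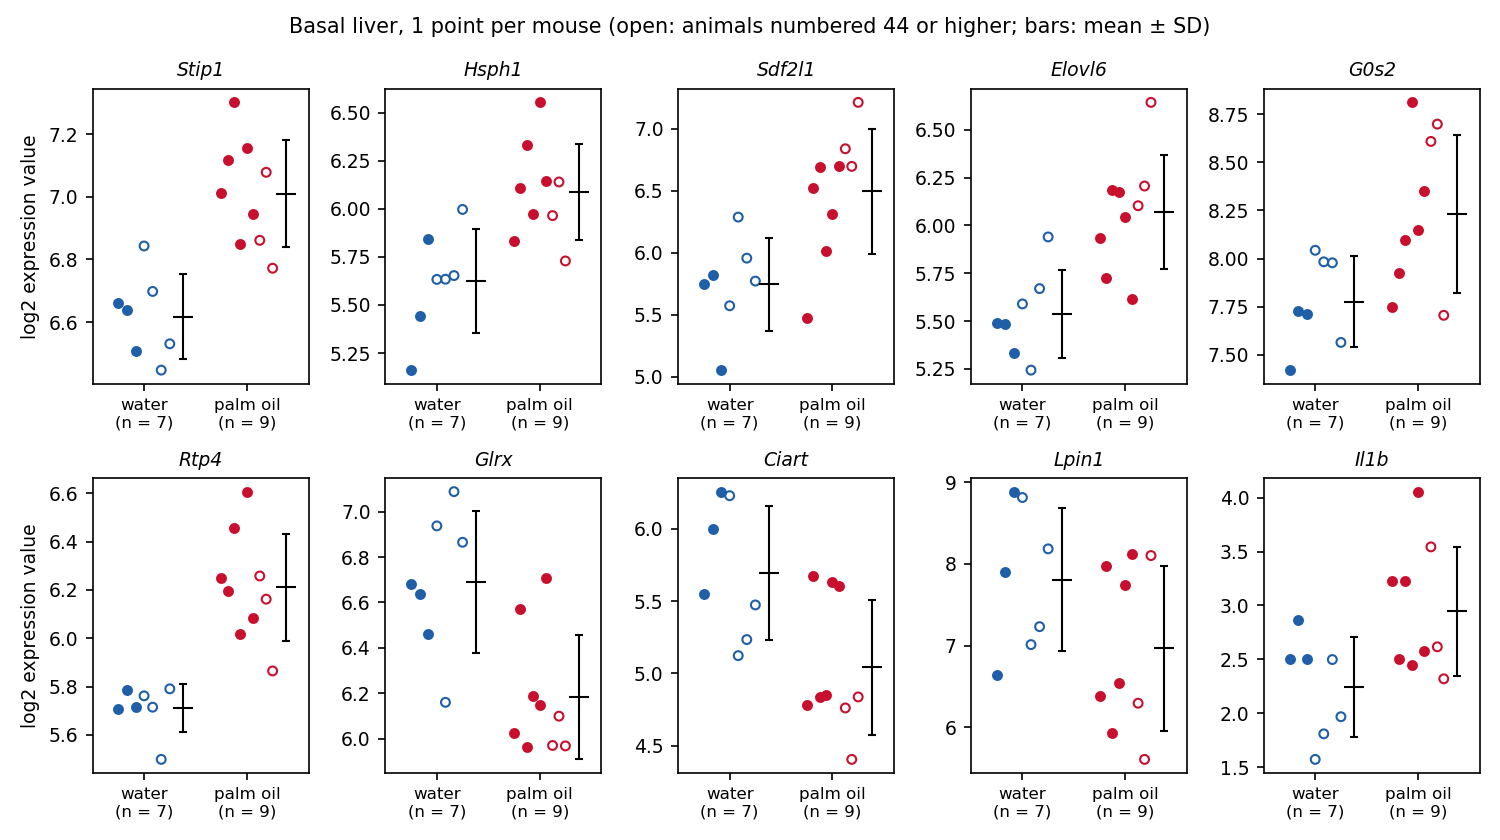
Log2 expression value of 10 genes in each basal mouse (1 point per mouse; open points are animals numbered 44 or higher), for 7 water and 9 palm oil mice, with bars for the mean and SD. Rtp4 shows no overlap between the groups, Stip1 overlaps through 1 palm oil mouse, and Lpin1 spreads over more than 2 log2 units within each group.

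Chaperones of the endoplasmic reticulum lay higher with palm oil in 22 of 24 genes, with a median log2 difference of 0.22 against 0.00 over all genes. At an unadjusted p under 0.05, 4 lay higher (the background for higher genes is 2.62%) and 0 lower. Besides Sdf2l1 these were Pdia3, a disulfide isomerase of glycoproteins (0.33 ± 0.14), Calr, the lectin chaperone calreticulin (0.25 ± 0.12), and Dnajc3, a BiP co-chaperone that also restrains the kinase PERK (0.23 ± 0.11). Creld2, a secreted isomerase, differed by 0.72 ± 0.37, Hyou1, a large HSP70 relative, by 0.47 ± 0.28 and Derl3, of the degradation channel, by 0.73 ± 0.45, genes named here after their values were seen. BiP itself, Hspa5, differed by 0.16 ± 0.17, and Xbp1, the transcription factor activated by splicing, by 0.10 ± 0.15. The lower genes were Herpud1, a scaffold of protein degradation (-0.27 ± 0.14), and Selenos (-0.11 ± 0.11).

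Averaged over these 24 genes, the level ran from 7.26 to 7.68 in palm oil mice (median 7.55) and from 7.17 to 7.41 in water mice (median 7.28). The groups overlapped in the lowest palm oil mice. The median difference of the list was 0.12 within the animals below 44 and 0.26 within those from 44 on, and lay between 0.19 and 0.25 when each array was left out. Genes of the ATF4 and CHOP branch did not share this: 12 of 23 lay above 0, with a median of 0.03, Ddit3 (CHOP) differed by 0.17 ± 0.21 and Trib3, a pseudokinase target of CHOP, by 0.06 ± 0.21.

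Cytosolic heat shock chaperones lay higher in 23 of 26 genes, with a median of 0.15, where 51.03% of all genes lay above 0. At an unadjusted p under 0.05, 6 lay higher, against 2.62% of all genes, and 0 lower. Besides Stip1 these were Hsp90aa1, the inducible HSP90 (0.42 ± 0.13), its activators Ahsa1 (0.30 ± 0.10) and Ahsa2 (0.41 ± 0.14), and the HSP110 proteins Hsph1 (0.46 ± 0.16) and Hspa4l (0.45 ± 0.16). Hsph1 differed by 0.68 below animal 44 and 0.22 from there on, and Hsp90aa1 by 0.41 and 0.21. Most of these serve HSP90 or reload HSP70, while Hspa8, the constitutive HSP70, differed by 0.08 ± 0.10 and the mitochondrial Hspd1 by 0.01 ± 0.08. The small heat shock protein Hspb1 differed by 0.59 ± 0.32 and the stress-inducible Hspa1b by 0.33 ± 0.47.

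The mean level of the 26 genes ran from 6.13 to 6.57 in palm oil mice and from 6.08 to 6.33 in water mice, and it differed between the sets of arrays. Below animal 44 the 6 palm oil mice lay from 6.45 to 6.57 and the 3 water mice from 6.27 to 6.33. From animal 44 on the 3 palm oil mice lay from 6.13 to 6.21 and the 4 water mice from 6.08 to 6.12. The groups did not overlap in either set, but the gap was wider in the first. From animal 44 on other lists also separated, so the second set does not mark this list out. Among them were endoplasmic reticulum chaperones (palm oil 7.53 to 7.66, water 7.17 to 7.38) and, in the other direction, clock genes (4.59 to 4.71 and 4.80 to 4.85). The median difference of the list was 0.18 in the first set, with 21 of 26 genes above 0, and 0.06 in the second, with 15 of 26. Of all genes, 52.7% lay above 0 in the first set and 50.2% in the second.

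The promoters of both chaperone lists were searched for the element through which each response is known to act, in RefSeq windows on build GRCm38.p6 from 250 bases before to 50 bases after each start. The endoplasmic reticulum stress element, searched as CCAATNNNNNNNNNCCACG on both strands, was found for 9 of the 21 endoplasmic reticulum chaperones with a window (42.9%) and for 0.137% of all 27025 genes. The heat shock element, searched as GAANNTTCNNGAA on both strands, was found for 4 of 21 heat shock genes (19%) and for 0.662% of all genes. A match describes these letters alone and does not show that a factor was bound in these livers. The shares depend on which genes were listed for each response and are not a result about palm oil. The windows below belong to the genes of the 2 lists that had both an unadjusted p under 0.05 and a match. Dnajc3 (chr14:118937682-118937981, plus strand) and Calr (chr8:84846882-84847181, minus strand) carry the stress element, the first on the strand of the gene and the second on the other strand. Hsph1 (chr5:149636287-149636586, minus strand) carries the heat shock element on the strand opposite to the gene, beginning at base 37 counted from the start as 1. Each is printed in the direction of its gene with the element in capitals.
Dnajc3: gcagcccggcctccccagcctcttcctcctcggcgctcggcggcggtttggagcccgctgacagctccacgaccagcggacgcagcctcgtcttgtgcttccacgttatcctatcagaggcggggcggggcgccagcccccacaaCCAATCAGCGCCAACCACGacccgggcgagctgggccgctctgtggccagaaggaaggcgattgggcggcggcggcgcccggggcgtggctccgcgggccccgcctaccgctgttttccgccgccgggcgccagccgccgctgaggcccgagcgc
Calr: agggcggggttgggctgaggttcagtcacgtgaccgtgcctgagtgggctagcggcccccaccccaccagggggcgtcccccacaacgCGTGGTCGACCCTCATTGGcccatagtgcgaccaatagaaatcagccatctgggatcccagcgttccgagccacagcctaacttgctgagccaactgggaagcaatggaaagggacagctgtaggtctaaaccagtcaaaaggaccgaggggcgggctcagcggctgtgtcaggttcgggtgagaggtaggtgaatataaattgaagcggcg
Hsph1: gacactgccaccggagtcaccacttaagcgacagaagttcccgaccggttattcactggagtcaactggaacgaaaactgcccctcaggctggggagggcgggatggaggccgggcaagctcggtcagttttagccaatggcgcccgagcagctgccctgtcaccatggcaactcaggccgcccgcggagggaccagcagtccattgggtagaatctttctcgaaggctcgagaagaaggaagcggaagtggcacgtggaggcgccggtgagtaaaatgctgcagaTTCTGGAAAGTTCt
In Dnajc3 and Calr the element begins 105 and 162 bases before the start. Their levels ran from 9.38 to 9.68 with palm oil against 9.10 to 9.48 with water for Dnajc3, and from 8.80 to 9.26 against 8.61 to 8.85 for Calr. For Hsph1 they ran from 5.73 to 6.55 against 5.16 to 6.00. All 3 ranges overlapped.

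Against 51.03% of all genes, interferon response genes lay higher in 22 of 28, with a median of 0.16. Where 2.62% of all genes lay higher at an unadjusted p under 0.05, 1 alone of the 28 did. This was Irf9, the DNA-binding subunit of the interferon-stimulated factor ISGF3, at 0.32 ± 0.14 over all mice, 0.16 below animal 44 and 0.47 from there on. Its level ran from 5.06 to 5.67 in palm oil mice and from 4.58 to 5.33 in water mice, with 5 palm oil mice above every water mouse. Irf1, an interferon regulatory factor, differed by 0.33 ± 0.16. Classical targets were not of 1 direction: Ifit3 differed by 0.40 ± 0.21 and Igtp, a guanosine triphosphatase, by 0.46 ± 0.27, while Isg15 differed by -0.11 ± 0.18 and Irf7 by -0.20 ± 0.12. The list's median was 0.06 below animal 44 and 0.16 from there on. An interferon-stimulated response element, searched as GAAANNGAAA on both strands, was found for 11 of 22 genes of this list (50%) and for 3.99% of all genes. That share too depends on which genes were listed.

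**Figure D3:**
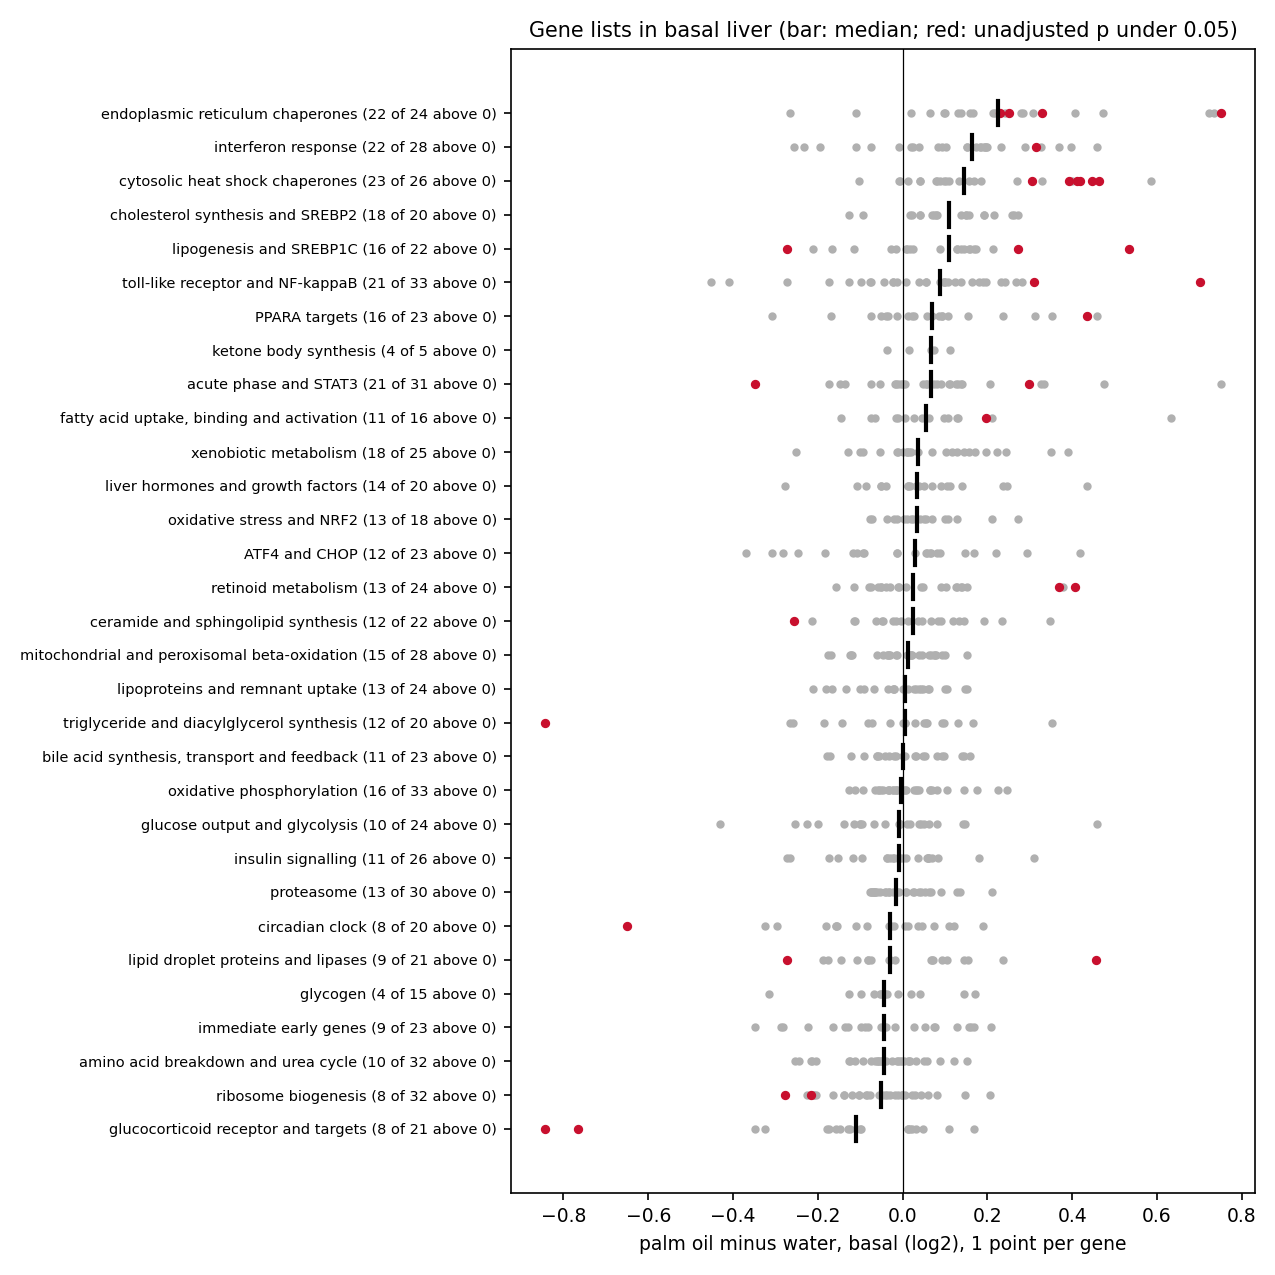
Palm oil minus water difference (log2) of the measured members of 31 gene lists in basal liver, 1 point per gene, with a bar at each list's median and red points for an unadjusted p under 0.05. The endoplasmic reticulum chaperones lie farthest right, at a median of 0.22, and glucocorticoid targets farthest left, at -0.11.

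Of genes that take up and activate fatty acids, 11 of 16 lay above 0, with a median of 0.05. With the sets split at animal 44 as a block 8 of 16 lay above 0, with a median of 0.00. Dbi, the acyl-CoA binding protein, differed by 0.20 ± 0.09, Cd36, a fatty acid transporter, by 0.21 ± 0.21 and Fabp5, a fatty acid binding protein, by 0.63 ± 0.33. The SE of Fabp5 takes in clamped mice, with SDs of 0.36 and 1.31 against 0.25 and 0.57 in basal palm oil and water mice. Of 23 PPARA targets 16 lay above 0 (51.03% of all genes), with a median of 0.07. Acot2, a mitochondrial acyl-CoA thioesterase, was the one with an unadjusted p under 0.05 (background for higher genes 2.62%). Acot2 ran from 2.97 to 4.13 in palm oil mice (median 3.71) and from 2.55 to 4.08 in water mice (median 3.02), with a difference of 0.44 ± 0.20. That difference was 0.06 below animal 44, 0.44 with the acinar level as a term and 1.10 without the arrays high in acinar transcripts. Without those arrays the list had 20 of 23 genes above 0 and a median of 0.26, with 4 palm oil and 3 water mice left. These palm oil mice were all below animal 44, and the water mice lay on both sides of it. Within the sets the list's mean level was 7.25 in palm oil and 7.21 in water mice below animal 44. From there on it was 7.02 and 6.97.

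The 17 bright PPARA targets differed by -0.31 to 0.35, 11 above 0 and 6 below, and the 95% interval lay within 1.5-fold for 15 of them. Angptl4, a lipase inhibitor that fasting raises, differed by 0.01, with a 95% interval from -0.28 to 0.31, and Ppara itself by 0.09, with one from -0.11 to 0.30. Plin2, the coat protein of the hepatocyte's lipid droplets, differed by 0.15, with one from -0.20 to 0.51. Enzymes of beta-oxidation lay on both sides of 0, 15 above and 13 below, between -0.18 and 0.15. For 27 of these 28 the 95% interval lay within 1.5-fold.

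G0s2, the inhibitor of adipose triglyceride lipase, was the bright gene of lipid droplets with the largest difference. It ran from 7.71 to 8.81 in palm oil mice (median 8.15) and from 7.42 to 8.04 in water mice (median 7.73). Of the palm oil mice 6 of 9 lay above every water mouse. The difference was 0.46 ± 0.18, and it was 0.56 below animal 44, 0.45 from there on and 0.23 without the arrays high in acinar transcripts. The list as a whole had 9 of 21 genes above 0 and a median of -0.03.

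Lipogenic genes lay above 0 in 16 of 22, with a median of 0.11, against 51.03% of all genes and 57.2% of bright ones. The background at an unadjusted p under 0.05 is 2.62% for higher and 2.49% for lower genes. Mlxipl, which encodes the glucose-sensing factor ChREBP, differed by 0.27 ± 0.11 and, with Elovl6, made up the 2 genes higher at an unadjusted p under 0.05. Pnpla3, at the background of the array, was the 1 lower gene (-0.27 ± 0.11). Scd1, the desaturase, differed by 0.17, with a 95% interval from -0.13 to 0.46, and Fasn, the fatty acid synthase, by 0.13, with one from -0.25 to 0.51. Srebf1, the insulin-driven factor above these genes, differed by -0.12 ± 0.15.

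Genes of cholesterol synthesis lay above 0 in 18 of 20, with a median of 0.11, and none had an unadjusted p under 0.05. This rested on the second set of arrays: 8 of 20 lay above 0 below animal 44, with a median of -0.03, and 19 of 20 from animal 44 on, with a median of 0.28. The level averaged over the list ran from 5.84 to 6.33 in palm oil mice and from 5.603 to 6.43 in water mice, so that the water mice spanned the palm oil mice. Sqle, the squalene epoxidase, differed by 0.26 ± 0.42 and Mvk, mevalonate kinase, by 0.27 ± 0.24.

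Of 20 genes of triglyceride and diacylglycerol synthesis 12 lay above 0 (51.03% of all genes), with a median of 0.01. Their differences ran from -0.84 for Lpin1 to 0.35 for Mogat1, an acyltransferase near the background. Lpin1 was the 1 gene with an unadjusted p under 0.05 (background for lower genes 2.49%). The diacylglycerol acyltransferases Dgat1 and Dgat2, which make triglyceride, differed by -0.08 ± 0.14 and 0.00 ± 0.12. Apob, the scaffold of very low density lipoprotein, differed by 0.01, with a 95% interval from -0.15 to 0.17, and Mttp, which loads it with lipid, by 0.04, with one from -0.18 to 0.27. Of 24 lipoprotein genes 13 lay above 0, and Apoa4, an apolipoprotein that dietary fat induces in the intestine, differed by 0.15 ± 0.22. Of the ceramide genes 12 of 22 lay above 0, against 51.03% of all genes, and the background for lower genes is 2.49%. Degs1, the desaturase that completes ceramide, was the 1 at an unadjusted p under 0.05, with levels from 6.81 to 7.23 in palm oil mice (median 6.89) and from 7.02 to 7.36 in water mice (median 7.22), a difference of -0.26 ± 0.10. Of the palm oil mice 8 of 9 lay below every water mouse. Sptlc2, of the enzyme that condenses serine with palmitoyl-CoA, differed by 0.09, with a 95% interval from -0.13 to 0.31, and Prkce, the diacylglycerol-sensing kinase linked to insulin resistance, by 0.09, with one from -0.12 to 0.31.

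Glucose output and insulin signalling genes showed no common direction. Of 24 genes of glucose output and glycolysis 10 lay above 0, with a median of -0.01, and of 26 insulin signalling genes 11, with a median of -0.01. With the sets split at animal 44 as a block 7 of the 26 insulin signalling genes lay above 0, with a median of -0.05, and 3 were lower at an unadjusted p under 0.05, where the model without the block had 0. Without the arrays high in acinar transcripts 17 of 26 lay above 0, with a median of 0.10. Insr, the insulin receptor, differed by 0.06, with a 95% interval from -0.12 to 0.25, and Gys2, the liver glycogen synthase, by -0.01, with one from -0.32 to 0.30. Genes of glycogen lay above 0 in 4 of 15, with a median of -0.04. For genes that vary widely between basal or clamped mice the limits were loose: the interval of Igfbp1, a secreted binding protein that insulin represses, ran from -0.62 to 0.76 and that of Cyp7a1, the first enzyme of bile acid synthesis, from -0.87 to 1.16. For Cyp7a1 the spread was mainly that of clamped mice. Its SDs were 0.56 and 0.52 in basal palm oil and water mice, against 0.89 and 1.93 in clamped ones. The gene lists for bile acids (11 of 23 above 0), the proteasome (13 of 30), oxidative phosphorylation (16 of 33) and xenobiotic metabolism (18 of 25) had medians between -0.01 and 0.04.

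Among genes of toll-like receptor and NF-kappaB signalling 21 of 33 lay above 0, with a median of 0.09, against 51.03% of all genes. Il1b, the cytokine interleukin 1 beta, ran from 2.32 to 4.06 in palm oil mice (median 2.62) and from 1.57 to 2.86 in water mice (median 2.50), with 4 palm oil mice above every water mouse. Its difference was 0.70 ± 0.27 at a level close to the background, with 0.38 below animal 44 and 0.87 from there on. Irak2, a kinase of the interleukin 1 receptor, differed by 0.31 ± 0.13, and by 0.20 without water replicate 7, while Nfkbia, the inhibitor that NF-kappaB induces, differed by -0.13 ± 0.14 and Tnf by 0.05 ± 0.44. The SE of Tnf takes in clamped mice, with SDs of 1.22 and 1.39 against 0.40 and 0.24 in basal palm oil and water mice.

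Acute phase genes lay above 0 in 21 of 31, with a median of 0.07, but in 8 of 31 from animal 44 on, with a median of -0.09. Il6st, the signalling subunit gp130, and Il6ra, the interleukin 6 receptor, had unadjusted p-values under 0.05 in opposite directions. Il6st differed by 0.30 ± 0.11, with 7 of 9 palm oil mice above every water mouse and 1 below them all, and by 0.03 from animal 44 on. Il6ra differed by -0.35 ± 0.17, with 4 palm oil mice below every water mouse, and by -0.13 below animal 44 and -0.55 from there on. Saa2, a serum amyloid, ran from 5.20 to 8.72 in palm oil and from 5.01 to 9.38 in water mice, and its interval of -0.68 to 0.94 covers a difference near 2-fold in the higher direction. That interval takes in the clamped mice, with SDs of 0.40 and 0.21 against 0.98 and 1.39 in basal palm oil and water mice.

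Of 12 Kupffer cell markers 11 lay above 0 (51.03% of all genes), with a median of 0.12. Adgre1, the macrophage antigen F4/80, was the 1 with an unadjusted p under 0.05 (background for higher genes 2.62%), at 0.55 ± 0.19. It is named after its value was seen. Clec4f, which Kupffer cells alone make in liver, differed by -0.01 ± 0.15 and Vsig4, another Kupffer cell receptor, by 0.05 ± 0.19. Averaged over the list the level ran from 5.01 to 5.55 in palm oil mice and from 5.04 to 5.36 in water mice. Of 14 neutrophil markers 7 lay above 0, and 2 were lower at an unadjusted p under 0.05 (background for lower genes 2.49%), both near the background of the array: the granule protein Ngp (-0.28 ± 0.12) and the protease Mmp9 (-0.25 ± 0.12). Mmp9 differed by 0.04 below animal 44 and -0.66 from there on. Stellate cell markers lay above 0 in 6 of 12, and sinusoidal endothelial markers lay above 0 in 9 of 12, with a median of 0.09. The part of these cells in the differences of Il1b or the interferon genes was not tested.

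Of 21 glucocorticoid receptor targets 13 lay below 0, with a median of -0.11, and 2 were lower at an unadjusted p under 0.05 (the background for lower genes is 2.49%). These were Lpin1 and Zbtb16, a zinc finger repressor, which ran from 2.06 to 5.25 in palm oil and from 3.65 to 5.77 in water mice and differed by -0.77 ± 0.36. The SD of Zbtb16 was 1.26 in basal palm oil and 0.71 in basal water mice, against 0.37 and 0.24 in clamped mice. For both genes the spread shared with clamped mice is narrower than the basal spread, and the count of 2 rests on it. Zbtb16 differed by -0.48 below animal 44 and -1.74 from there on. With the sets split at animal 44 as a block 5 of the 21 were lower at an unadjusted p under 0.05. Without the arrays high in acinar transcripts the list's median was 0.05, with 12 of 21 above 0. Clock genes lay above 0 in 8 of 20, with a median of -0.03. Per1, a clock gene that glucocorticoids also induce, differed by -0.32 ± 0.18, with 3 palm oil mice below every water mouse. The value was -0.19 below animal 44, -0.71 from there on and -0.18 without palm oil replicate 8. Of 23 immediate early genes 9 lay above 0, and Dusp1, a MAP kinase phosphatase, differed by -0.35 ± 0.20.

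Ribosome biogenesis genes lay below 0 in 24 of 32, with a median of -0.05, and the 95% interval of each of the 32 lay within 1.5-fold. Nop56, a core protein of small nucleolar RNA particles, differed by -0.28 ± 0.12 and Wdr12, which matures the large subunit, by -0.22 ± 0.09. Averaging all probe sets of Nop56 in place of the brightest gave -0.04. Myc, the factor that drives ribosome production, was among the 10 genes with the smallest p over all levels, and is named for that after its value was seen. It ran from 2.59 to 3.31 in palm oil mice (median 3.02) and from 3.23 to 4.33 in water mice (median 3.44), a dim gene with a difference of -0.71 ± 0.18. Amino acid breakdown and urea cycle genes lay below 0 in 22 of 32, with a median of -0.04, but above 0 in 20 of 32 without the arrays high in acinar transcripts.

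**Figure D4:**
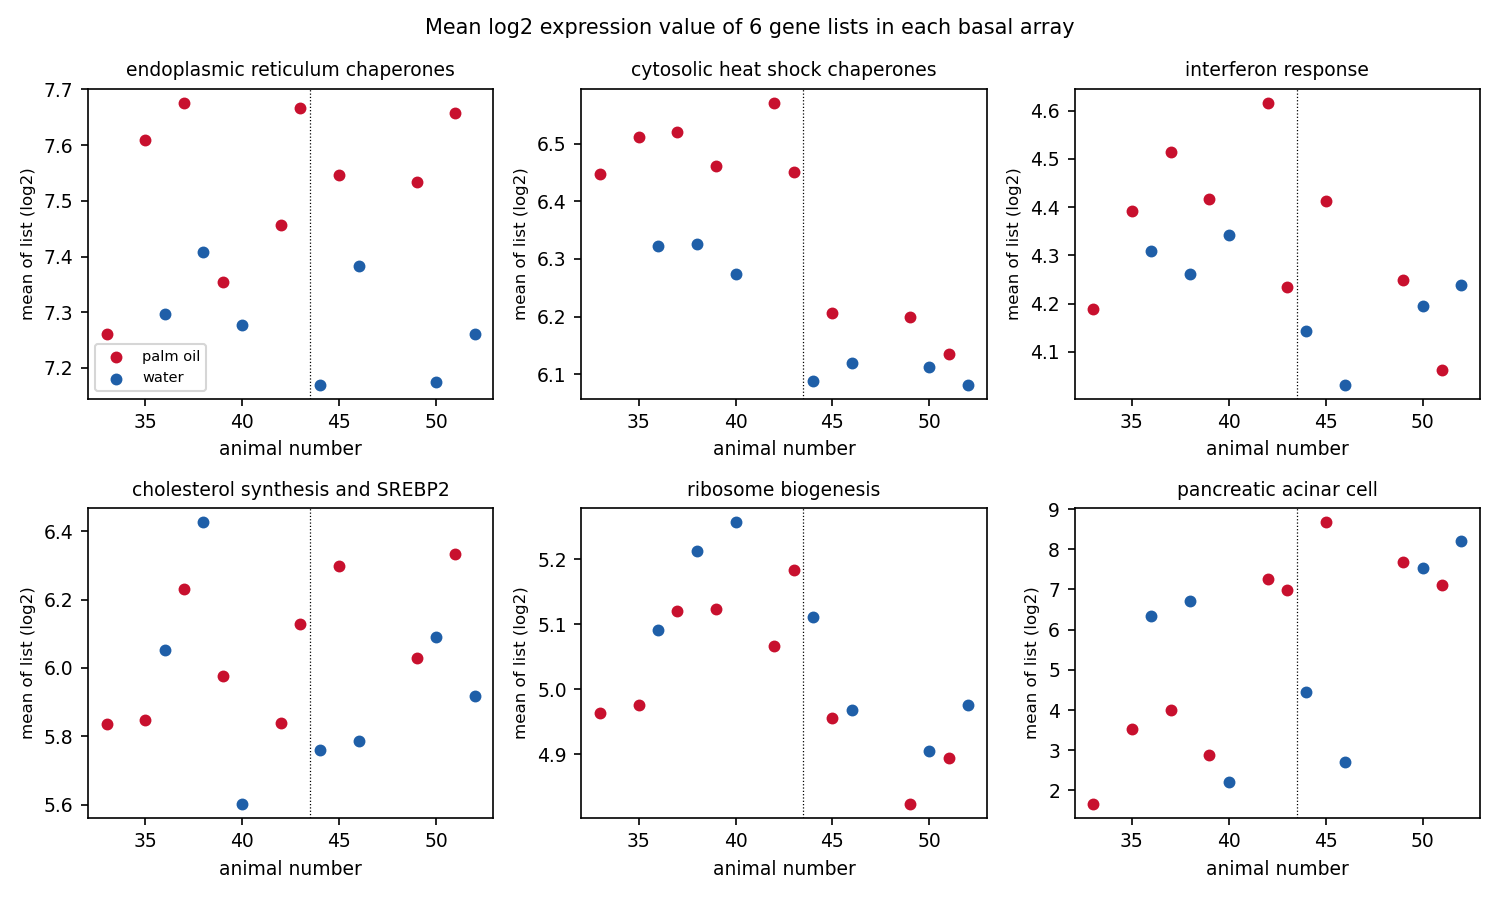
Mean log2 expression value of 6 gene lists in each basal array, against the number of the animal in the labels, for 9 palm oil and 7 water mice; the dotted line separates the animals numbered 44 or higher. Heat shock genes are lower in every array right of the line than in any left of it and the palm oil mice lie above the water mice on both sides, whereas acinar transcripts range from 1.67 to 8.67 with no separation of the groups.

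The clamped mice, which are other animals and share no array with the basal ones, give the palm oil minus water difference under other conditions. They were catheterised, and their clamp followed 6 h after the gavage, so their livers were taken later. Time, catheter and insulin cannot be told apart in values set beside the basal ones. Of the 157 bright genes with an unadjusted p under 0.05 in basal mice, 85 (54.1%) had the same sign in clamped mice, against 50.7% of all 4601 bright genes. With an unadjusted p under 0.05 there and the same sign were 5 of the 157, against 90 of the 4601. These were G0s2 (0.46 in basal and 0.42 in clamped mice), Rtp4 (0.50 and 0.44), Abhd3, a phospholipase (0.21 and 0.22), the olfactory receptor gene Olfr1034 (0.41 and 0.46) and the uncharacterised 0610043K17Rik (0.27 and 0.30).

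Other leading genes took other values. Sdf2l1 differed by 0.75 in basal and -0.24 ± 0.35 in clamped mice, and Lpin1 by -0.84 and 0.31 ± 0.37. Elovl6 differed by 0.04 ± 0.19 in clamped mice, Hsph1 by -0.04 ± 0.16 and Stip1 by 0.13 ± 0.11. The endoplasmic reticulum chaperones lay above 0 in 3 of 24 in clamped mice, with a median of -0.09, and heat shock genes in 15 of 26, with a median of 0.02. Cholesterol synthesis genes lay above 0 in 3 of 20, with a median of -0.14. The test of the change between basal and clamped mice called no gene, with a smallest limma adjusted p of 0.5256 (773 genes at an unadjusted p under 0.05), so these changes of sign were not shown to be differences.

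**Figure D5:**
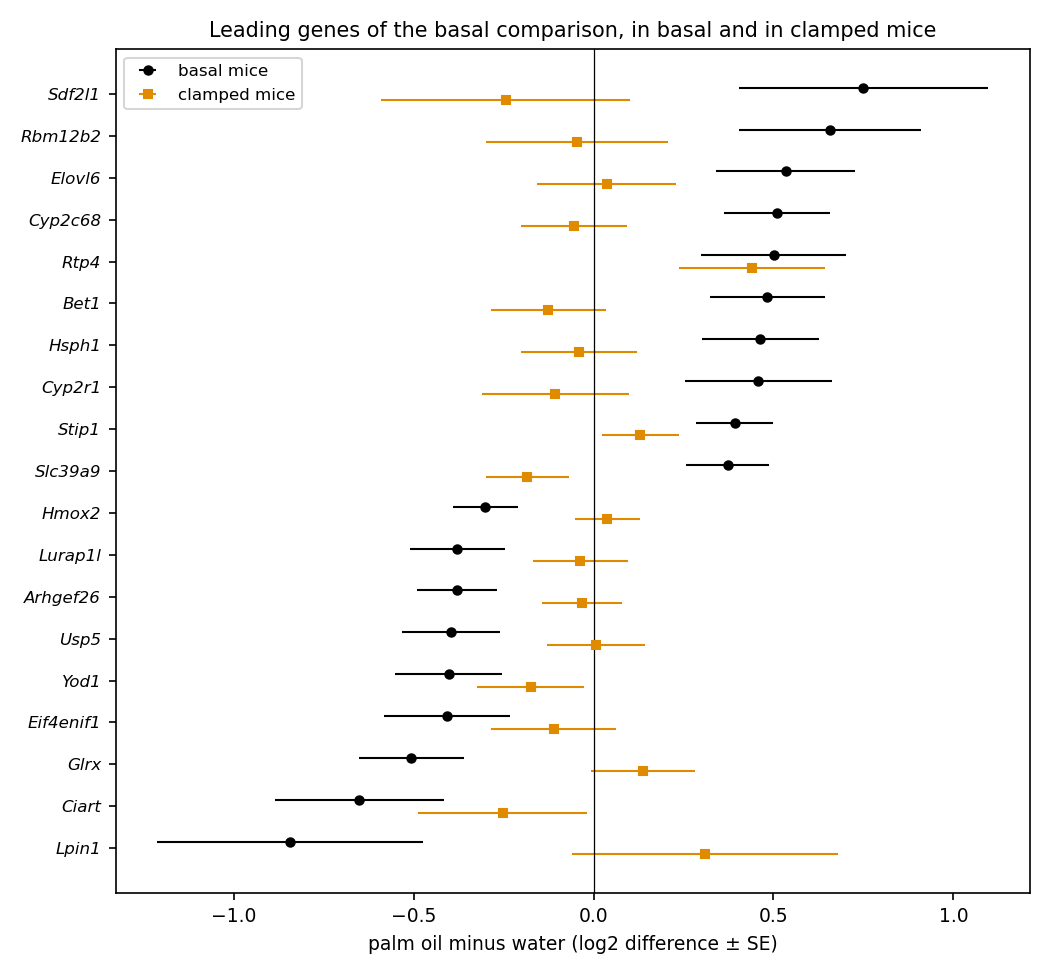
Palm oil minus water difference (log2, with its SE) of 19 genes in basal (circles) and clamped mice (squares), 9 palm oil and 7 water mice each. They are bright genes with an unadjusted p under 0.05 in basal mice and the largest differences or smallest p among such genes. Rtp4 has nearly the same value in both, at 0.50 and 0.44, while Sdf2l1 and Lpin1 have values of opposite sign.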

How the data were processed

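Liver RNA of 32 mice was hybridised to 1 array each. Per the submitters' processing notes, the authors ran RMA (Affymetrix Expression Console, version 1.3.0.187) to obtain the log2 values, which were used as deposited. RMA corrects background, normalizes between arrays and summarises probe sets, so low values are compressed. Of 41345 probe sets, 23521 had 1 gene symbol in the platform annotation, 1814 had several and 16010 had none listed. Entrez identifiers of 23328 probe sets matched a RefSeq gene table, which changed 0 symbols. The probe set with the highest mean stood for a gene (1082 genes had several), which left 22180 genes. 5 of the anchor genes were not analysed here.

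Samples were grouped by their titles. Each array is a separate mouse, so the spread covers differences between animals, and the number of arrays limits the precision. One linear model with a mean for each of the 4 groups was fitted to the 32 arrays in R 4.3.3 with limma 3.58.1 (functions lmFit and eBayes), leaving 28 residual degrees of freedom. The contrast was palm oil minus water in basal mice, with Benjamini-Hochberg adjustment over the 22180 genes and a threshold of 0.05. Every p in the text comes from this fit unless another test is named, and values after ± are its standard errors. A probe set is called bright at a mean of at least 5 over the basal arrays. The functions were tested on simulated data with planted differences of 2-fold or more in bright genes. Smaller differences, such as those of the leading genes here, were not simulated.

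The comparison, the 31 pathway lists, the 14 cell type lists and the 45 anchor genes were chosen with earlier results of these data known, so lists are described by counts and medians without a test. Named genes were the 8 largest differences in each direction among bright genes with an unadjusted p under 0.05, the 6 smallest p of bright genes, the 2 members of each pathway list with the smallest p, anchors, bright genes whose groups did not overlap, and genes making up small counts in an alternative. Predicted models, small RNAs and receptor or immunoglobulin segments were left out of the first groups, and some named genes are not printed. Further members of lists, the non-overlapping genes below that level and other genes outside this rule were named after their values were seen. Promoter windows came from RefSeq. Alternatives were other scalings, filters, priors and weights, a rank sum test, blocks, splits of the arrays and leaving out each array.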

Additional observations from a re-analysis of the deposited data

Results flagged for a closer look

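In 62 genes, 124 groups of basal values were examined for a mouse far from the others of its group, and 7 stood apart. About 1 group in 20 would do so by chance. Rtp4 was 5.50 in water replicate 6, below the nearest water mouse at 5.71, on the side away from the palm oil mice. Yod1 was 4.78 in water replicate 1 against 5.40 in the nearest mouse, and Plin2 was 7.95 in the same mouse against 7.59. Srebf1 was 5.54 in water replicate 5 against 4.82, and Fasn was 5.26 in water replicate 3 against 5.89. In palm oil replicate 7, Ppargc1a, a coactivator of gluconeogenic genes, was 3.94 against 4.47, and Ddit3 was 4.32 against 4.93.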

How the results depend on the processing

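The count of 0 called genes was the same under all alternatives that were run except 3, each with 1 call. Without the arrays over 6 in acinar transcripts Brca2 was called (1.37 ± 0.21, limma adjusted p 0.0256). That fit set palm oil mice all below animal 44 against water mice on both sides of it. Within the sets Brca2 differed by 0.65 below animal 44 and 0.48 from there on. Over all arrays with the acinar level as a term it differed by 0.69. Without water replicate 1 Cops7b was called (0.88 ± 0.15, adjusted p 0.0224), and without water replicate 3 Mir1968 was called (-0.59 ± 0.10, adjusted p 0.0237), so that leaving out each array gave counts from 0 to 1. Cops7b and Mir1968 had adjusted p-values of 0.300 and Brca2 of 0.960 with all arrays. The cause was not tested. Counts at an unadjusted p under 0.05 went from 1134 to 2081 without the arrays high in acinar transcripts and to 695 without the animals numbered 44 or higher. In the former, treatment and the split at animal 44 are partly confounded. Same-numbered palm oil and water mice had residual correlations from -0.49 to 0.56, over 0.1 in 3 of 7, and 2 of 7 palm oil mice correlated best with their own number, so the numbers were not taken as pairs. With the replicate block 0 genes passed, and 1446 had an unadjusted p below the threshold. Over the alternatives, 27 values of named genes moved by more than 1 SD of the mice in a group, 3631 did not and the 3 calls above passed, while 15 list medians moved and 1103 did not.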

Other observations

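The widest variation between basal mice of 1 group lay outside the treatment. Among bright genes the 15 with the largest SD within groups were pancreatic acinar genes, led by Sycn, a protein of zymogen granules (SD 3.34), and Ctrb1, a chymotrypsinogen (SD 3.27). After these came Cyp2b9, a cytochrome P450, with levels from 3.36 to 8 in palm oil and from 3.64 to 6.20 in water mice, and H2-Q10, a secreted class I molecule of the liver, from 3.86 to 6.96 and from 4.02 to 7.28. Cox7b, a subunit of cytochrome c oxidase, ran from 5.79 to 8.85 in palm oil and from 5.55 to 8.86 in water basal mice, whereas the clamped mice lay from 8.45 to 8.84 and from 8.16 to 8.93. For these genes the basal comparison is weak: the 95% interval of Cox7b ran from -0.22 to 1.48 and that of Cyp2b9 from -0.70 to 1.48. Both intervals share the spread of the clamped mice. The SDs of Cox7b were 1.14 and 1.43 in basal palm oil and water mice, against 0.13 and 0.25 in clamped ones. Its interval is thus too narrow for the basal mice alone. The differences also varied with the set of arrays. With the split at animal 44 as a block Cox7b differed by 0.10, against 0.63 without the block. For H2-Q10 these values were -0.24 and 0.31, and for Cyp2b9 0.44 and 0.39. Without the arrays high in acinar transcripts the differences were 1.90 for Cox7b, 1.74 for H2-Q10 and 0.57 for Cyp2b9.

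Reg3b, an antimicrobial lectin also made by stressed acinar cells, had the largest difference of all 22180 genes, 1.66 ± 1.03, at a mean of 2.93. It was not close to the threshold at an unadjusted limma p of 0.116, and was named after its value was seen.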
